A study of Homo sapiens with 4 samples.

Results

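The 10 cytosolic aminoacyl-tRNA synthetase genes AARS1, CARS1, EPRS1, GARS1, IARS1, LARS1, MARS1, NARS1, SARS1 and WARS1 were chosen by name, with no rule on their values, though earlier results of these data were known. They were read by 22 of the 54675 probe sets on the arrays, and 9 of the 10 genes were among the 19775 genes with a probe set annotated to that gene alone. MARS1 was read only by 3 probe sets that also carry the name MIR6758, a microRNA gene that RefSeq places inside MARS1, so those probe sets are described under both names. The profiles came from 2 established human HCC cell lines, Huh7 and Hep3B, on Affymetrix Human Genome U133 Plus 2.0 arrays. Huh7 and Hep3B cells were kept with ATO (arsenic trioxide, 3 μM) for 7 days, and the negative control (NC) of each line was kept with DMSO. There was 1 profile per group and 4 in all, so a ratio within a line has no error of its own, and the number of arrays limits the precision. Both lines are cultured tumor lines, and no normal hepatocytes were profiled.

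An aminoacyl-tRNA synthetase joins an amino acid to its tRNA, which is the step that gives the genetic code its meaning before the ribosome uses the charged tRNA. Most cells hold one set of these enzymes for the cytosol and another for mitochondria, and several of the cytosolic ones are held together in a multisynthetase complex by scaffold proteins. When the kinases of eIF2α are active, as in amino acid shortage or endoplasmic reticulum stress, translation slows in general while the factor ATF4 is made, and ATF4 is known to raise the transcription of many cytosolic synthetase genes together with genes of amino acid uptake and synthesis. The C/EBP-ATF response element, written here as TGATGNAA, is the short DNA motif through which ATF4 and its partners are known to act.

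Promoter windows of 300 bases, with 250 before and 50 from the annotated start, were listed by RefSeq (GRCh38.p14) for 9 of the 10 genes, and LARS1 was not among them. The motif was searched on both strands, and the letters of TGATGNAA occurred in a window of 6 of these 9 genes, against 1217 of all 27305 genes with a window (4.46%). Per window, the counts were 6 of 13 for the synthetases and 1270 of 35116 in all (3.62%). The stretches around these matches are shown because they are what the 6 promoters share, in lower case with the match in capitals, 5′ to 3′ on the strand of the gene and no further than 30 bases into the transcribed part. They lie at chr16:70289656-70289723 (AARS1, minus strand), chr11:3057394-3057455 (CARS1, minus), chr7:30594815-30594882 (GARS1, plus), chr9:92293673-92293740 (IARS1, minus), chr12:57488034-57488097 (MARS1, plus) and chr18:57621807-57621852 (NARS1, minus).
AARS1: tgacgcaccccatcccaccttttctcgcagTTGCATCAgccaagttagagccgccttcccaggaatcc
CARS1: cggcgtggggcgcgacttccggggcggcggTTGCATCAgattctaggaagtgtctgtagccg
GARS1: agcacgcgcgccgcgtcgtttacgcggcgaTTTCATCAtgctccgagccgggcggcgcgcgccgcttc
IARS1: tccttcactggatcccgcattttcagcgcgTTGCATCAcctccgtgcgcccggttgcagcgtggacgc
MARS1: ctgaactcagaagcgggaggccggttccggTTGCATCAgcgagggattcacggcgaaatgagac
NARS1: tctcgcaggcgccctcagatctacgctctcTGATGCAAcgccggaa

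The match lay on the opposite strand to the gene in AARS1, CARS1, GARS1, IARS1 and MARS1, where it reads as its reverse complement, and on the strand of the gene in NARS1. In 5 of the 6 genes the letters were TGATGCAA or its reverse complement, which 295 of the 27305 genes hold in a window (1.08%), a form looked at after the matches had been seen. Counted from the annotated start as 0, the first base of the match lay at -187 in AARS1, -33 in GARS1, -13 in IARS1, -4 in MARS1, -2 in CARS1 and 14 in NARS1, so that 5 of the 6 were within a short distance of the start. No match was found in the windows of EPRS1, SARS1 and WARS1. Among the other cytosolic synthetases with a window the motif was present in TARS1 alone (1 of 7 genes), among the mitochondrial ones in YARS2 alone (1 of 14), and in the stress response list in 4 of 10 genes (ATF3, ASNS, CHAC1 and CEBPG). A match is a description of letters, and binding was not measured.

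The deposited intensities are linear, with medians of 15.8 to 16.3 and maxima of 13416 to 14163.5 in the 4 profiles. A probe set with a mean under the median of all values, 15.99, is called dim. Over 24 probe sets of poly-A control transcripts, the median log2 of ATO over NC was -0.28 in the Huh7 profiles and -0.23 in the Hep3B ones, and their part in any result was not tested. Of 13 hepatocyte-lineage markers, 11 were measured and none was dim. However, 5 of them (ALB, AFP, APOH, GPC3 and TTR) were under 0.1 of the Hep3B value in the profiles labelled Huh7, with ATO and in NC. Huh7 is known for making albumin and α-fetoprotein, so these levels go against what its label would give, and the identity of the profiles was not tested. The names Huh7 and Hep3B stand for the labels throughout. ALB (albumin) was 357.5 with ATO and 154.7 in NC for Huh7, against 10730 and 12803 for Hep3B, and AFP (α-fetoprotein) was 62.1 and 91.8, against 1646 and 3567. Only 3 of the 11 were higher in Huh7 both with ATO and in NC. FGA was at 1.37 times the Hep3B value with ATO and 6.52 times in NC, FGB at 1.29 and 4.83, and SERPINA1 at 1.53 and 1.26. APOB was at 1.01 and 0.750. APOA1, at 0.384 and 0.247, and TF, at 0.631 and 0.526, were lower in Huh7 in both. Of the 12 measured markers of leukocytes, endothelial cells and fibroblasts, 8 were dim, with PTPRC (the pan-leukocyte marker) between 6.15 and 8.87, and those of highest intensity were COL1A1, at 54.5 to 76.4, and PDGFRB.

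In Hep3B cells 8 of the 9 synthetases that could be read alone were higher with ATO than in NC, and WARS1, SARS1, GARS1 and CARS1 passed a ratio of 1.5. In Huh7 cells all 9 were higher with ATO, but by 1.02 to 1.24 times, and none passed 1.5. Over all 19775 genes, 56% were higher with ATO in Hep3B and 51.1% in Huh7. With each profile centred on its median, AARS1 and NARS1 in Huh7 turned just below 0 on the log2 scale, which left 7 of 9 higher. LARS1 was the exception in Hep3B, at 0.944. The plot of the levels shows the 4 intensities of each gene.

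**Figure D1:**
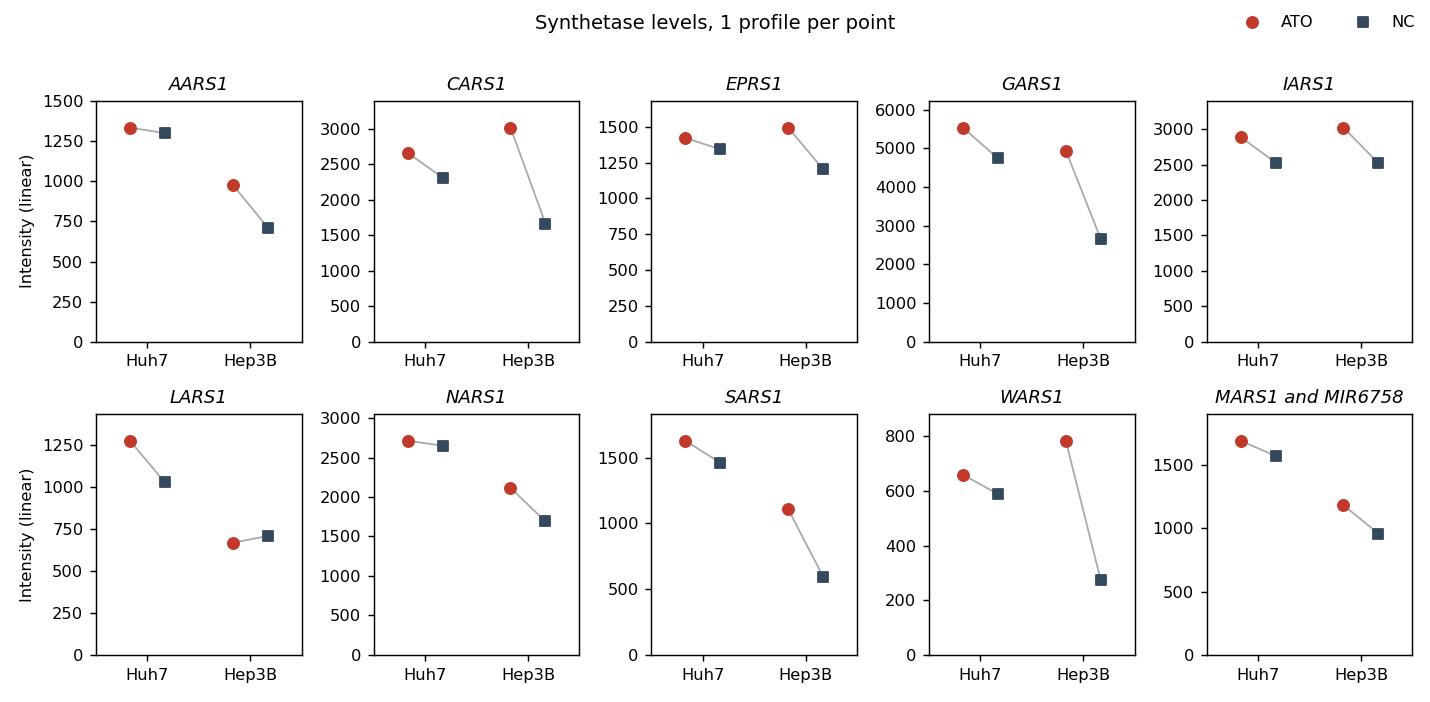
Intensity of each synthetase gene (linear scale from 0, brightest probe set) with ATO (red circles) and in NC (dark squares), in Huh7 and Hep3B cells, with 1 profile per point. The largest ratios of ATO over NC are those of WARS1, SARS1, GARS1 and CARS1 in Hep3B, and the Hep3B points of LARS1 run the other way; the last panel shows the probe set named for both MARS1 and MIR6758.

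WARS1 charges tRNA with tryptophan and is also known as a gene induced by interferon-γ. Its intensity was 659.8 with ATO and 589.0 in NC in Huh7 cells, and 784.1 with ATO and 272.6 in NC in Hep3B cells. The NC Hep3B profile was thus the low one, and the other 3 lay close together. The ratio of ATO over NC was 1.12 in Huh7 and 2.88 in Hep3B, which placed WARS1 at percentile 99.6 of all genes in Hep3B and 72.4 in Huh7. The second probe set of WARS1 had 246.9 with ATO and 248.6 in NC in Huh7, and 219.9 with ATO and 85.6 in NC in Hep3B. It gave 0.993 in Huh7 and 2.57 in Hep3B, so both probe sets showed the gap in Hep3B and neither did in Huh7.

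SARS1, which charges tRNA with serine and also serves the tRNA of selenocysteine, had 1629 with ATO and 1462 in NC in Huh7 cells, and 1109 with ATO and 594.9 in NC in Hep3B cells. Its ratios were 1.11 in Huh7 and 1.86 in Hep3B. The second, much fainter probe set of SARS1 had 57.6 and 52.5 in Huh7 and 21.0 and 19.4 in Hep3B (ATO, then NC), with ratios of 1.10 and 1.08, so the gap in Hep3B was seen by the bright probe set alone, and the mean of both (log2 ratio 0.51) lay under the threshold.

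GARS1 makes glycyl-tRNA and is known to serve both the cytosol and mitochondria. It was the brightest of the genes, with 5539 with ATO and 4742 in NC in Huh7 cells, and 4944 with ATO and 2654 in NC in Hep3B cells. As with WARS1 and SARS1, the NC Hep3B value was the lowest, and the ratios were 1.17 in Huh7 and 1.86 in Hep3B from a single probe set.

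CARS1, the cysteinyl enzyme, had 2659 with ATO and 2308 in NC in Huh7 cells, and 3013 with ATO and 1662 in NC in Hep3B cells. The ratios were 1.15 in Huh7 and 1.81 in Hep3B. CARS1 had 4 probe sets, and the other bright ones gave 1.34 and 1.21 in Huh7 and 1.87 and 1.87 in Hep3B. Its dim probe set, at 5.66 to 9.04, gave 1.13 and 1.19. The 3 bright probe sets of CARS1 therefore passed 1.5 in Hep3B and none did in Huh7.

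The other genes with a higher value in both lines stayed under 1.5 in their brightest probe set. AARS1, the alanyl enzyme, had 1336 with ATO and 1301 in NC in Huh7, and 977.8 with ATO and 712.0 in NC in Hep3B, with ratios of 1.03 and 1.37. NARS1, which charges tRNA with asparagine, had 2713 with ATO and 2650 in NC in Huh7, and 2116 with ATO and 1690 in NC in Hep3B, with ratios of 1.02 and 1.25. In Huh7 the ATO and NC values of AARS1 and NARS1 were nearly equal, and in Hep3B both were higher with ATO.

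IARS1, the isoleucyl enzyme and a part of the multisynthetase complex, had 2889 with ATO and 2527 in NC in Huh7, and 3021 with ATO and 2518 in NC in Hep3B. It was the gene whose lines were most alike, with ratios of 1.14 and 1.20 and NC values that differed little. EPRS1, a single protein of the complex that charges both glutamate and proline, had 1423 with ATO and 1343 in NC in Huh7, and 1495 with ATO and 1204 in NC in Hep3B. Its brightest probe set gave 1.06 in Huh7 and 1.24 in Hep3B, and the other 2 gave 0.969 and 1.07 in Huh7 and 1.51 and 1.63 in Hep3B. The side of the threshold on which EPRS1 lay in Hep3B thus depended on the probe set.

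LARS1, the leucyl enzyme of the complex, which is also known as a sensor of leucine for mTORC1, had 1276 with ATO and 1028 in NC in Huh7, and 668.5 with ATO and 708.2 in NC in Hep3B. The ratio was 1.24 in Huh7 and 0.944 in Hep3B. All 4 probe sets of LARS1 had this pattern, with 1.03 to 1.35 in Huh7 and 0.815 to 0.944 in Hep3B. One of them ends in _x_at, a suffix for probes that can bind related transcripts.

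For MARS1, the methionyl enzyme of the complex, which also charges the initiator tRNA, the probe sets shared with MIR6758 gave a similar picture. The brightest had 1690 with ATO and 1571 in NC in Huh7, and 1181 with ATO and 957.2 in NC in Hep3B, with ratios of 1.08 and 1.23. The second, an _x_at probe set, had 1389 with ATO and 1091 in NC in Huh7, and 1016 with ATO and 633.6 in NC in Hep3B, with ratios of 1.27 and 1.60. The faint one gave 1.03 and 1.35. All 3 were higher with ATO in both lines, and 1 passed 1.5 in Hep3B.

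Over the 21 probe sets that were not dim, 19 were higher with ATO and 2 lower in Huh7, with ratios of 0.969 to 1.35 and none above 1.5, whereas of all 28108 such probe sets 51.6% were higher and 3.92% above 1.5. In Hep3B, 17 were higher and 4 lower, the lower ones being those of LARS1, with ratios of 0.815 to 2.88 and 10 above 1.5, against 53.3% higher and 6.17% above 1.5 of all such probe sets. Probe sets of the same gene differed by a pooled SD of 0.13 in Huh7 and 0.21 in Hep3B on the log2 scale. In Huh7 the log2 ratios of AARS1, EPRS1 and NARS1, at 0.03 to 0.08, were smaller than that SD, those of CARS1, GARS1, IARS1, SARS1 and WARS1, at 0.16 to 0.22, were somewhat larger, and that of LARS1 was 0.31. In Hep3B those of CARS1, GARS1, SARS1 and WARS1, at 0.86, 0.90, 0.90 and 1.52, were well above the pooled SD. That SD is not the spread of each gene, and the probe sets of SARS1 were far apart in Hep3B, at 0.90 and 0.11. GARS1, AARS1, IARS1 and NARS1 have a single probe set each, so their own probe disagreement is not known. This spread measures how the probes of a gene disagree within the same arrays, and probe sets are not replicates.

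**Figure D2:**
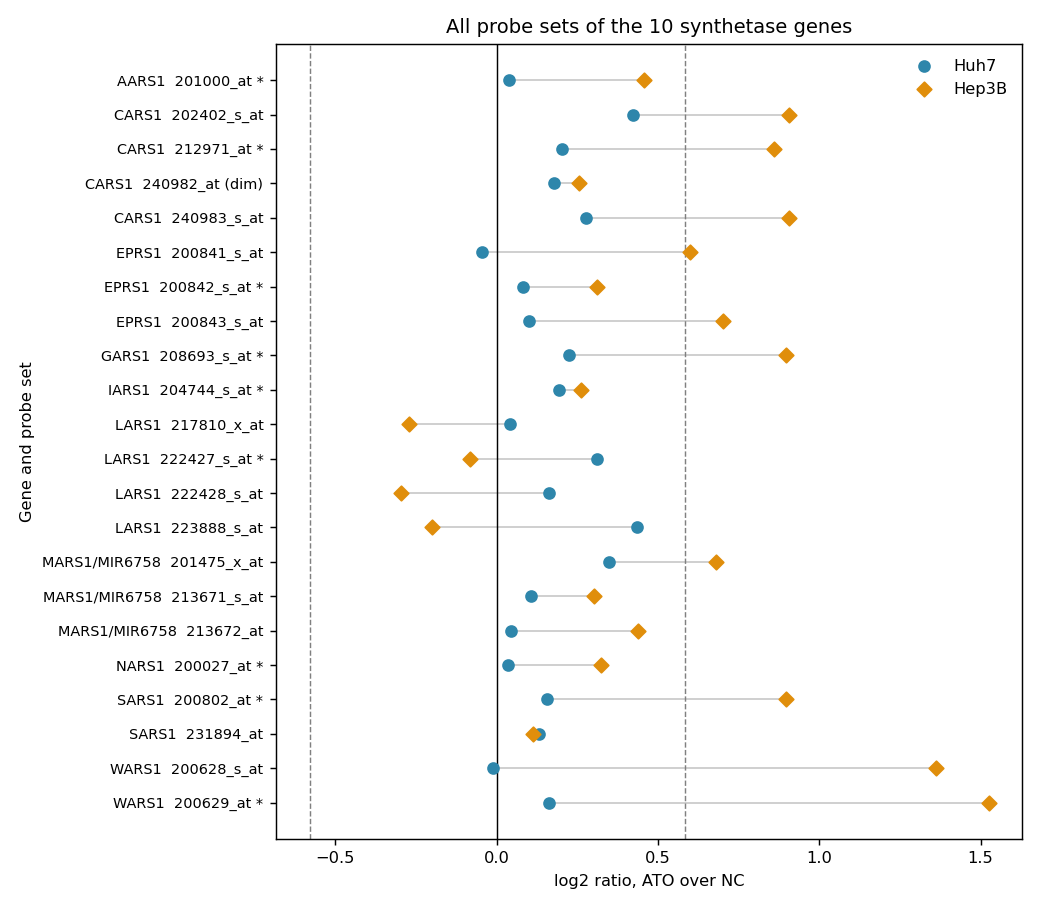
Log2 ratio of ATO over NC for each of the 22 probe sets of the 10 genes in Huh7 (blue circles) and Hep3B (orange diamonds), with 1 ratio per point; dashed lines mark ratios of 1.5 and 0.67, an asterisk the probe set that stands for the gene. In Hep3B 10 of the 21 probe sets that are not dim lie past the upper line, against 6.17% of all such probe sets, and the 4 of LARS1 lie below 0, and no Huh7 point is past a line.

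Set beside all genes, the synthetases stood higher in Hep3B than in Huh7. In Hep3B 4 of 9 passed 1.5, against 5.04% of all 19775 genes, and the median log2 ratio was 0.46, against 0.04 over all genes. In Huh7 0 of 9 passed, against 3.21%, and the median was 0.16, against 0.01. In both lines together 0 of 9 passed, against 0.804%. No synthetase was below 0.67, against 3.25% of all genes in Huh7 and 4.02% in Hep3B. A ratio above 1 in both lines, of any size, was found for 8 of 9, against 32% of all genes, and for 6 of 9 after median centring. The synthetases were read by brighter probe sets than most genes, and among the genes that were not dim the central 95% of log2 ratios ran from -0.69 to 0.69 in Huh7 and from -0.79 to 0.90 in Hep3B. WARS1 in Hep3B lay outside that range, and SARS1 and GARS1 lay at its upper edge.

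The log2 ratio was larger in Hep3B than in Huh7 for 8 of 9 genes, LARS1 being the exception, against 53.7% of all genes. The levels of the lines were also compared directly. In NC, all 9 genes were higher in Huh7 than in Hep3B, by 1.003 to 2.46 times, against 54.2% of all genes, with a median log2 ratio of Huh7 over Hep3B of 0.65. With ATO, 5 of 9 were higher in Huh7, against 52.8% of all genes, and the median was 0.16. SARS1 was 1.47 times as high in Huh7 as in Hep3B with ATO and 2.46 times in NC. WARS1 was 0.841 times as high in Huh7 as in Hep3B with ATO, against 2.16 times in NC. For CARS1 the corresponding ratios were 0.883 with ATO and 1.39 in NC, and for GARS1 they were 1.12 and 1.79. For LARS1, which differed from the others, they were 1.91 with ATO and 1.45 in NC.

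**Figure D3:**
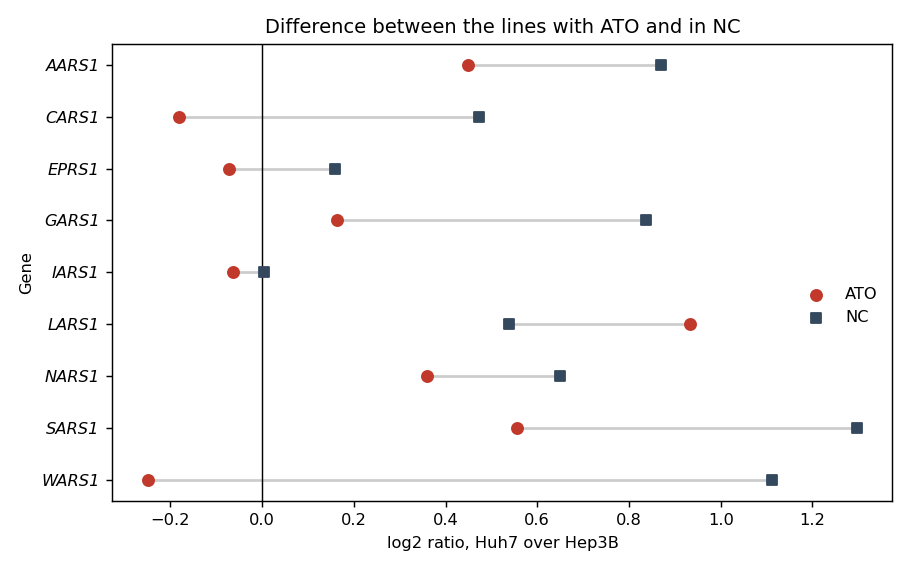
Log2 ratio of Huh7 over Hep3B for each of the 9 genes with ATO (red circles) and in NC (dark squares), with 1 ratio per point. In NC all 9 points are at or above 0, and with ATO 4 lie below 0; LARS1 is the one gene whose ATO point lies to the right of its NC point.

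These comparisons share the NC Hep3B profile, which was the lowest of the 4 for 8 of 9 genes, against 32.3% of all genes. The larger ratios in Hep3B and the lower starting level of NC Hep3B are thus partly the same measurement. Whether that single profile or the treatment sets them cannot be told apart with 1 profile per group.

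Across lines, a limma model of log2(intensity + 16) that held line and treatment left 1 residual degree of freedom, and the lines stood in for replicates. After Benjamini-Hochberg adjustment it called 0 of the 9 synthetases and 0% of all genes, with adjusted p-values of 0.516 to 0.869 for the synthetases. At an unadjusted p under 0.05 it had 1 of 9 higher, IARS1, against 5.24% of all genes. That limma count was 0 with median centring, where 825 of the 19775 genes were higher and 1007 lower at that p. It was 4 with dim genes left out, where 717 of 12962 genes were higher and 681 lower. The count was also 4 with no offset (992 higher and 860 lower of 19775) and with an intensity trend in the prior (967 and 841). The limma difference of IARS1 was 0.23 ± 0.065 (SE; unadjusted p = 0.0446, adjusted p = 0.516), a small difference that was alike in both lines. WARS1 had the largest difference, 0.82 ± 0.40 (SE), with an adjusted p of 0.618 in limma, since its lines were far apart. For LARS1, whose lines had opposite signs, limma gave 0.11 ± 0.13 (SE; adjusted p = 0.869).

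When the genes were grouped by their place in the cell, a grouping made after the values had been seen, EPRS1, IARS1 and LARS1 of the multisynthetase complex had ratios of 0.944 to 1.24 in Hep3B, with a median of 1.20. The 6 genes outside the complex had 1.25 to 2.88, with a median of 1.84. The gap between these ranges rested on the brightest probe set of EPRS1. With the mean of probe sets the complex ran from 0.863 to 1.45 and the others from 1.25 to 2.72, so they overlapped, and MARS1, also of the complex, was not counted because its probe sets carry a second name. In Huh7 the medians were 1.14 in the complex and 1.12 outside it. The other cytosolic synthetases overlapped more. KARS1 and RARS1 of the complex had 1.17 and 1.36 in Hep3B, and the 6 outside it, TARS3 not being placed in either group, had 1.29 to 1.91 with a median of 1.46. AIMP1, a scaffold protein of the complex, was 725.4 with ATO and 692.3 in NC in Huh7, and 703.0 and 625.2 in Hep3B, with ratios of 1.05 and 1.12. Its fainter probe sets disagreed, with 1.07 and 1.35 in Huh7 and 1.03 and 1.69 in Hep3B. Genes with the TGATGNAA letters in a promoter window and a probe set of their own had ratios of 1.20 to 1.86 in Hep3B (5 genes), and those without had 1.24 to 2.88 (EPRS1, SARS1 and WARS1), so the ranges overlapped.

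The remaining cytosolic synthetases, 9 of 11 of which were measured, ran close to the 10 genes. The log2 medians were 0.08 for Huh7 and 0.45 for Hep3B. In the same order, 7 and 8 of them were higher with ATO, against 51.1% and 56% of all genes. A ratio of 1.5 was passed by 0 and 3, against 3.21% and 5.04%. The highest were YARS1 (tyrosine), at 1.20 in Huh7 and 1.91 in Hep3B, and FARSB (a subunit of the phenylalanyl enzyme), at 1.23 and 1.65. The lowest by the mean log2 ratio of both lines were TARS3, at 0.686 and 0.694, and KARS1 (lysine), at 1.03 and 1.17. Another TARS3 probe set, an _x_at one, gave 1.25 in Huh7 and 0.877 in Hep3B, so its direction in Huh7 depended on the probe set. The mitochondrial synthetases differed from both, with 15 of 17 measured, medians of -0.10 in Huh7 and 0.08 in Hep3B, and none above 1.5. FARS2, at 1.12 in Huh7 and 1.38 in Hep3B, and HARS2, at 1.12 and 1.29, were the highest of them. Another FARS2 probe set that was not dim gave 0.845 in Huh7 and 1.33 in Hep3B. LARS2, at 0.850 and 0.917, and SARS2, at 0.923 and 0.861, were the lowest by the mean log2 ratio of both lines. The other LARS2 probe set gave 0.947 in Huh7 and 1.11 in Hep3B, so its direction in Hep3B depended on the probe set.

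Among the genes of the integrated stress response the median log2 ratio was 0.42 for Huh7 and 1.03 for Hep3B. In the same order, 3 and 7 of 10 passed 1.5, against 3.21% and 5.04% of all genes. ATF4 itself, which is regulated mostly through its translation, had 3464 with ATO and 3417 in NC in Huh7, and 3402 with ATO and 2833 in NC in Hep3B, with ratios of 1.01 and 1.20. Its known target ASNS, the asparagine synthetase, had 1073 with ATO and 903.8 in NC in Huh7, and 1526 with ATO and 560.7 in NC in Hep3B, with ratios of 1.19 and 2.72. Like WARS1, ASNS was lowest in NC Hep3B and highest in ATO Hep3B, but its other profiles lay less close together. With ATO its Huh7 value was 0.703 times that of Hep3B, against 0.841 times for WARS1. NC Hep3B was the lowest profile for 6 of the 10 genes of this list, against 32.3% of all genes. TRIB3 was not among them, with 525.4 in NC Hep3B and 268.9 in NC Huh7. TRIB3, a pseudokinase, was 1.52 in Huh7 and 2.74 in Hep3B, DDIT3, which codes for CHOP, 1.27 and 1.70, and CHAC1, which degrades glutathione, 1.43 and 3.83. CEBPG, at 1.26 and 1.12 in its brightest probe set, was with ATF4 the lowest of the list by the mean log2 ratio of both lines. In Huh7 alone SESN2 was the lowest, at 0.986, with 1.78 in Hep3B. The other CEBPG probe set gave 1.48 in Huh7 and 1.42 in Hep3B.

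**Figure D4:**
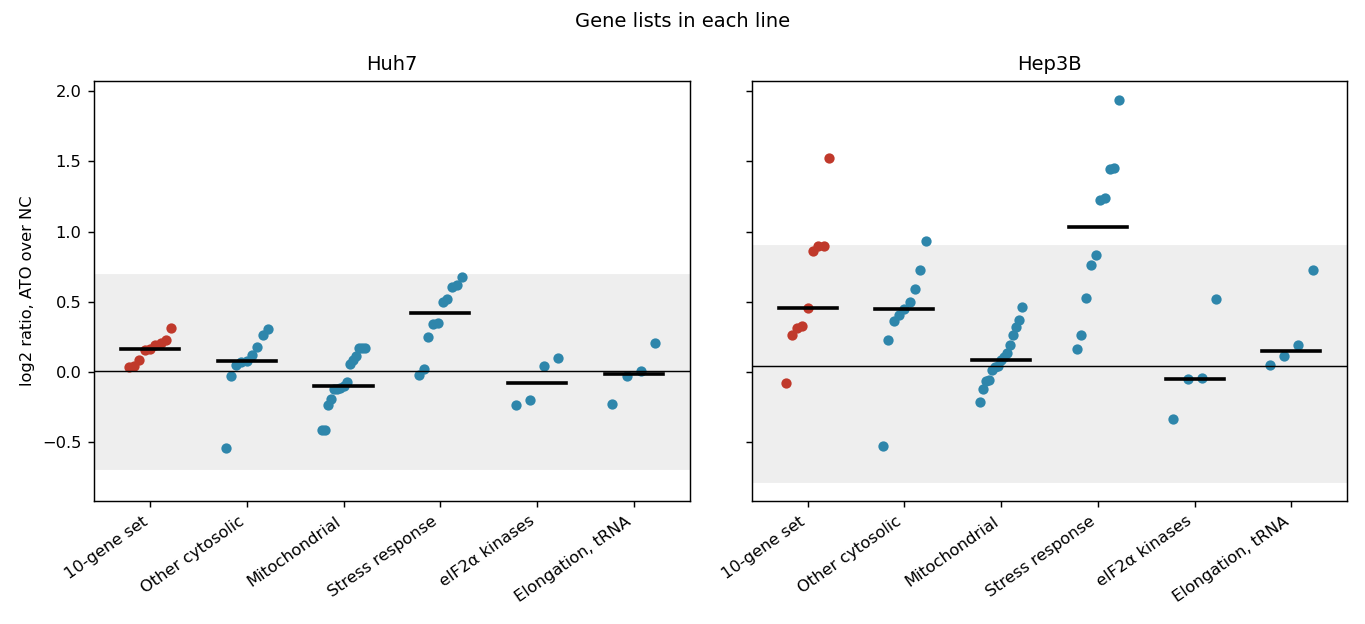
Log2 ratio of ATO over NC in Huh7 (left) and Hep3B (right) for the genes of 6 lists, with 1 gene per point and a thick bar at the list's median; the thin line is the median of all genes and the gray band the central 95% of the genes that were not dim. In Hep3B the 10-gene set, of which 9 are measured, has a median of 0.46, the other cytosolic synthetases 0.45, the mitochondrial ones 0.08 and the stress response genes 1.03.

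None of the 4 kinases of eIF2α passed a threshold. The ratio of EIF2AK1 was 1.03 in Huh7 and 0.970 in Hep3B, that of EIF2AK2 (PKR) 1.07 and 1.43, EIF2AK3 (PERK) 0.871 and 0.793, and EIF2AK4 (GCN2) 0.848 and 0.963. Another EIF2AK2 probe set that was not dim, an _x_at one, gave 0.836 in Huh7 and 1.05 in Hep3B. Of the elongation and tRNA partners, EEF1A1, which carries charged tRNA to the ribosome, was 1.004 and 1.08, EEF1D 1.15 and 1.14, and EEF2 0.853 and 1.03. The other EEF2 probe set gave 1.03 in Huh7 and 1.20 in Hep3B. Other EEF1A1 probe sets that were not dim gave 0.857 to 0.973 in Huh7 and 0.941 to 1.28 in Hep3B. Those of EEF1D gave 0.967 to 1.24 and 1.04 to 1.23, so some directions depended on the probe set. DTD1, which removes D-amino acids from tRNA, was 0.977 in Huh7 and 1.66 in Hep3B, past the threshold in Hep3B as were 4 of the synthetases. Because WARS1 is known to respond to interferon, interferon-responsive genes were read beside it. Of the 6 measured, 2 passed 1.5 in Huh7 and 4 in Hep3B, against 3.21% and 5.04% of all genes. Among the 6, 3 were dim, including the 2 that passed in Huh7, GBP1 and PSMB9. TAP1, a peptide transporter, was 113.1 with ATO and 92.8 in NC in Huh7, and 76.2 with ATO and 32.1 in NC in Hep3B, with ratios of 1.22 and 2.37. GBP1, at 2.30 and 2.38, and PSMB9, at 1.84 and 1.96, were higher in both lines but dim, and IRF1, at 1.21 and 1.47, and IDO1, at 1.03 and 0.996, were the lowest. The other IRF1 probe set gave 0.990 in Huh7 and 1.60 in Hep3B. The direction of IRF1 in Huh7 and its side of the threshold in Hep3B thus depended on the probe set. The part of these genes, of the poly-A controls and of the marker differences in the ratios of the synthetases was not tested.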

How the data were processed

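Gene expression was profiled on Affymetrix Human Genome U133 Plus 2.0 arrays, with 1 profile per line and treatment. The methods state that the authors used RMA (Robust Multi-array Average) with a log transformation and a step between arrays in simpleaffy. The authors deposited 1 linear intensity for each probe set. How log values were made linear again, and whether arrays were averaged into a column, is not given in the sources used here. Normalization between arrays sets the overall level of the profiles equal, so a shift of all genes would not be seen. All 4 columns were matched by label, and no detection call was used here.

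The platform annotation gave a single symbol to 41097 of the 54675 probe sets, more than 1 to 1801 and no gene to 11777. Each of the 19775 genes was represented by its brightest probe set with 1 symbol. List members that no single-symbol probe set reads were left out. Within each line, ATO was divided by NC, with thresholds of 1.5 and 0.67 as in the study. The test across lines used limma 3.58.1 in R 4.3.3 on log2(intensity + 16), with terms for line and treatment and Benjamini-Hochberg adjustment over all genes at 0.05, two-sided. Nothing in the labels says that the profiles are separate cultures beyond the lines, and p-values measure only the spread between lines. The limma fit was tested on simulated data with known changes. The noise there was set by hand and not estimated from these arrays, so that test does not show the power here. The synthetase genes, gene lists and tests were chosen with earlier results of these data known. All 10 synthetases and their probe sets are named, as are the 2 highest and 2 lowest genes by mean log2 ratio of each other list, lists of up to 4 genes whole, and ATF4, DDIT3, ASNS and TRIB3. TAP1, the complex grouping and the markers given with values were chosen after their values were seen. Promoter windows came from RefSeq (GRCh38.p14). The alternatives were other ways to combine probe sets, _x_at probe sets left out, quantile normalization, median centring, an offset of 16 in the ratio, dim genes left out, thresholds of 2 and 0.5, a line left out, other offsets and priors in limma, no cell line in the model, and the methods' t-test. Plots were drawn with matplotlib 3.10.9.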

Additional observations from a re-analysis of the deposited data

Results flagged for a closer look

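The log2 ratio of ATO over NC of LARS1 was 0.31 in Huh7 and -0.08 in Hep3B, a difference of 0.39 (Huh7 minus Hep3B), with opposite signs in the lines. All 4 probe sets of LARS1 had these signs, and the difference itself was not tested, since each line has 1 profile per treatment.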

How the results depend on the processing

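Of 156 recomputed log2 ratios of the synthetases and of ATF4, DDIT3, ASNS and TRIB3, 153 moved by less than the SD among probe sets of a gene and none reversed a called value. Many of the 156 could not move, so the count does not measure stability. Leaving out dim genes or _x_at probe sets kept the same probe set for all these genes. For a gene with a single probe set, the mean of probe sets is that same value. With the mean of probe sets the Hep3B log2 ratio of SARS1 was 0.51, that of EPRS1 0.54 and that of ASNS 0.97. Near 0, AARS1, NARS1 and ATF4 in Huh7 changed sign under median centring. With thresholds of 2 and 0.5, 1 synthetase passed in Hep3B instead of 4. With Hep3B alone 4 passed, and with Huh7 alone 0, where none passed in both lines. Over all genes above 1.5, counts were 564 in Hep3B, 296 in Huh7 and 96 in both with an offset of 16 in the ratio, and 259, 154 and 40 with the stricter thresholds, against 996, 635 and 159. Below 0.67 they were 478 in Hep3B and 393 in Huh7 with the mean of probe sets, 520 and 309 with the offset, and 180 and 93 with the stricter thresholds, against 794 and 642. After adjustment limma called 1 gene higher and 2 lower with dim genes left out, 5 and 3 with no offset, and 7 and 2 with an intensity trend, against 0 and 0, with no synthetase among them under any of these settings. At an unadjusted p under 0.05, 4 synthetases passed in limma under each of those 3 settings, 2 with the mean of probe sets and 0 with median centring, against 1. Over all genes those limma counts were 717 higher and 681 lower of 12962 with dim genes left out. Of 19775 genes they were 992 and 860 with no offset, and 967 and 841 with an intensity trend. With the mean of probe sets they were 1052 and 690, and with median centring 825 and 1007, against 1036 and 850. The methods' t-test at 0.01 passed 84 genes higher and 43 lower and no synthetase, and none after Benjamini-Hochberg adjustment. The causes were not tested. A limma fit with a line left out has no residual degrees of freedom and could not be fitted. The comparison in limma is already paired by cell line. With 1 profile per group, dim probe sets and small ratios cannot be told from array noise.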
